A study of Mus musculus with 2 samples.

Results

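Slc16a11 (ENSMUSG00000040938) is 1 gene of the 32432 measured in single leukocytes from mouse melanomas. It was selected on its own measured level in these data, which was lower in CD8 T cells of Trex1 iKO tumours than of control tumours. That difference is therefore given below as a description, with no test. The gene encodes a member of the monocarboxylate transporter family, also called MCT11. Members of this family move small carboxylates such as lactate and pyruvate, or other metabolites, across membranes, and several need an accessory glycoprotein, basigin or embigin, to reach the cell surface. In people the locus is known for variants linked to type 2 diabetes, and in tumours the transporter has been described on exhausted T cells, which are chronically stimulated T cells with reduced function.

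Both groups were male mice of 8 to 12 weeks that carried 1 knock-in copy of R26CreERT2, a tamoxifen-activated Cre recombinase expressed from the broadly active Rosa26 locus, so deletion was not limited to T cells. The iKO group had the genotype Trex1 fl/fl and the control group Trex1 wt/fl, so the controls also carried 1 conditional allele. Every mouse received 1000 B16-F10 melanoma cells in Matrigel in the skin of both legs, tamoxifen at 1 mg on 3 days from day 5, and was sampled on day 14. Living leukocytes with surface CD45 were bead-enriched and sorted, then marked with hashtag antibodies and captured with a 3′ droplet kit. Each group was run as 1 pool of 4 hashtag samples, here control 1 to 4 and iKO 1 to 4, and a genotype effect and a pool effect cannot be told apart. The labels do not say whether a hashtag sample is 1 mouse, so every test below measures the spread between hashtag samples.

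Trex1, the targeted gene, had 2 UMIs (unique molecules counted) over all kept cells, so its loss could not be checked from these counts. The 8 samples held 17111065 to 96457227 UMIs, and 22052 cells were kept. Median UMIs per kept cell were 12983 to 14491 in the iKO samples and 6405 to 11846 in the control samples. Cells were assigned to types by gates on marker UMIs. The gates were checked with markers that they did not use: Pax5 and Ebf1 were highest in B cells, Klrk1, Gzma and Eomes in NK cells, and Lyz2, C1qa and Cd68 in monocytes and macrophages. In gated CD8 T cells the T cell gene Trac stood at 484 CPM (UMIs of the gene per 1000000 UMIs) over all samples pooled, and the melanoma gene Dct at 4.89 CPM.

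Slc16a11 was almost confined to T cells with CD8 transcripts. Of its 1094 UMIs in kept cells, 890 (81.4%) lay in the 4721 gated CD8 T cells, where 450 cells had at least 1 UMI. A further 49 UMIs lay in T cells that had both Cd3 and Cd8 UMIs but failed the CD8 gate, and 96 in ungated cells of that kind. In all, cells with 2 or more Cd3 UMIs and 2 or more Cd8 UMIs held 1035 of the 1094 UMIs (94.6%), and the other 16596 cells held 59. Most positive cells of other types had a single UMI: all 20 positive monocytes or macrophages did, as did all 3 B cells and all 3 neutrophils.

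The order of the gated types by mean level over samples with at least 20 cells began with CD8 T cells at 23.9 CPM ± 20.6 (SD, n = 8), a spread that holds both genotypes. It continued with T cells in no other T gate (3.27 ± 3.06 CPM, n = 8), conventional CD4 T cells (2.84 ± 5.96, n = 8), B cells (1.68 ± 4.76, n = 8), regulatory T cells (0.464 ± 0.887, n = 8) and neutrophils (0.372 ± 0.542, n = 8). Mature dendritic cells (0.263 ± 0.506 CPM, n = 8), monocytes and macrophages (0.191 ± 0.150, n = 8) and type 1 dendritic cells (0.127 ± 0.335, n = 7) were lowest among the types compared. CD8 T cells exceeded the next type in 7 of 8 samples, by 2.36 ± 1.28 (SD) on the log2(CPM + 1) scale (exact two-sided sign-flip permutation test over samples, p = 0.0156, adjusted p = 0.125 over 8 neighbour pairs). The exception was iKO 2, with 5.25 CPM in CD8 T cells and 6.45 CPM in the other T cells. The other neighbour pairs had an unadjusted p of 0.25 or more by the sign-flip test, and no pair passed 0.05 after adjustment. With 8 samples that all differ the smallest p this test can give is 0.00781. A pair alone at that p could not pass after adjustment over 8 pairs. Samples without a UMI in both types of a pair raise the smallest p. Conventional CD4 T cells against B cells differed in only 3 samples, so 0.25 was the smallest p possible there. These tests therefore cannot show that neighbours are alike.

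**Figure D1:**
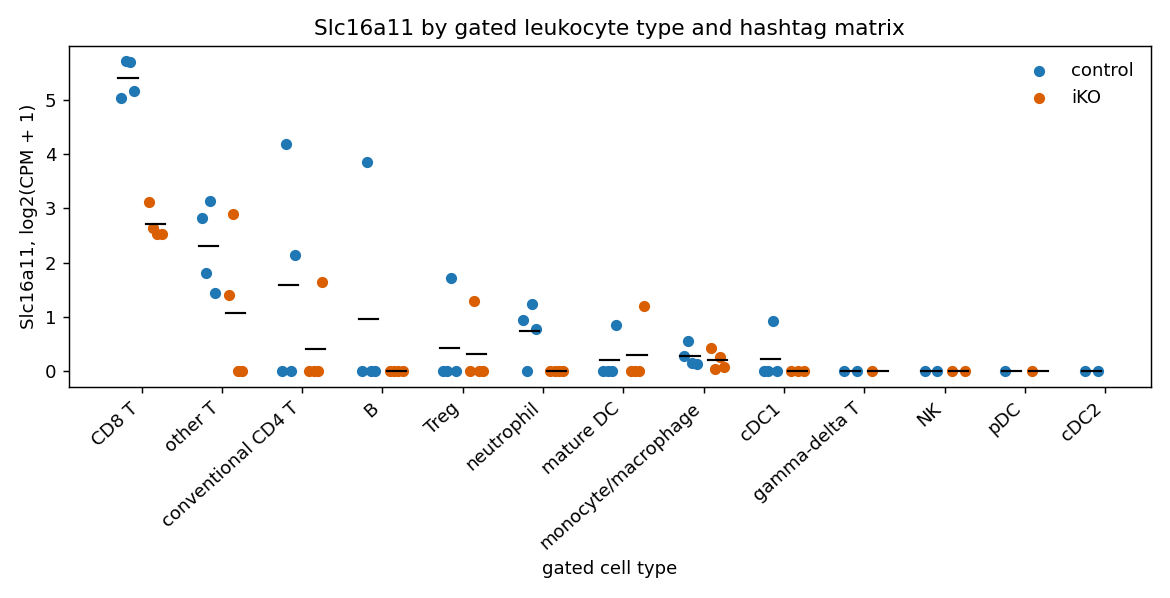
Slc16a11 level as log2(CPM + 1) (y axis) in each gated cell type (x axis), 1 point per hashtag sample with at least 20 cells, control in blue and iKO in orange, with black bars at the group means. CD8 T cells are highest in both groups, and the 4 control samples (31.8 to 51.0 CPM) lie above the 4 iKO samples (4.76 to 7.70 CPM).

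No UMI of Slc16a11 was found in 221 NK cells, which allows up to 1.55 CPM and a share of up to 1.36% of cells with a UMI by the limit of 3 counts. The 153 gamma-delta T cells (up to 2.84 CPM) and 131 plasmacytoid dendritic cells (up to 1.87 CPM) also had none, and type 2 dendritic cells had 1 UMI in 119 cells. The gene was rare in regulatory T cells, the Foxp3-expressing suppressive subset, with 5 UMIs in 642 cells. Conventional CD4 T cells had 13 UMIs in 627 cells, of which 11 came from 2 cells of control 2, with 3 and 8 UMIs. Those 2 cells had 9 and 10 Cd4 UMIs and no Cd8a or Cd8b1 UMI.

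Outside the CD8 gate the level did not differ detectably between genotypes. In the 8 other types with enough cells, the exact two-sided permutation test over samples gave adjusted p of 0.914 to 1.00, with unadjusted p of 0.143 to 1.00 and iKO lower in 7 of 8 types. The gene failed the low-count filter in each of these types. In edgeR without that filter its adjusted p was 0.410 (conventional CD4 T cells, unadjusted p = 0.0261) to 0.896. T cells in no other T gate had 6.07, 2.50, 7.79 and 1.73 CPM in control 1 to 4 and 1.64, 6.45, 0 and 0 in iKO 1 to 4, and the groups overlapped (p = 0.229 by the exact test, adjusted p = 0.914). Neutrophils had 3 UMIs in controls and 0 in iKO, and monocytes and macrophages averaged 0.221 ± 0.169 CPM in controls against 0.161 ± 0.148 CPM in iKO (SD, n = 4 each). The smallest p the exact test allows for 4 samples against 4 is 0.0286, but not where most samples had no UMI. UMIs lay only in control 2 for B cells and only in control 3 for type 1 dendritic cells. They lay only in control 3 and iKO 2 for regulatory T cells, and only in control 4 and iKO 4 for mature dendritic cells. In these types, and in conventional CD4 T cells and neutrophils, too few samples held UMIs for a p under 0.05. Depth was the limit here: in regulatory T cells a pooled count of 3 corresponds to 1.08 CPM in controls and 0.733 CPM in iKO.

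In gated CD8 T cells, the cytotoxic T cells of the tumour, control 1 to 4 had 31.8, 51.0, 50.6 and 34.9 CPM of Slc16a11, from 193, 128, 114 and 47 UMIs in 400, 207, 203 and 121 cells. The iKO samples 1 to 4 had 7.70, 5.25, 4.78 and 4.76 CPM, from 179, 210, 7 and 12 UMIs in 1156, 2253, 145 and 236 cells. Every control sample was above every iKO sample, which is a description only, since the gene was chosen for being lower in iKO. The share of all genes whose groups separate in this way was not counted. The means were 42.1 ± 10.1 CPM in controls and 5.62 ± 1.41 CPM in iKO (SD, n = 4 each). The fitted log2 fold change was -2.77 ± 0.224 (SE, edgeR), which is 6.81-fold lower in iKO. It was the second lowest of the 9463 genes fitted, after Mrc2 at -2.85. Over that contrast 3.25% of genes passed an adjusted p of 0.05 in edgeR's quasi-likelihood test, 1.97% as higher and 1.29% as lower in iKO.

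A smaller share of iKO CD8 T cells had a UMI of the gene. Cells with at least 1 UMI made up 26%, 20.8%, 18.2% and 16.5% of CD8 T cells in control 1 to 4. In iKO 1 to 4 they made up 8.48%, 6.13%, 2.07% and 2.97%, although iKO 1 and 2 had the deepest CD8 T cells, with medians of 17947 and 14889 UMIs. No iKO sample reached a control sample, which is not independent of the level by which the gene was chosen. In monocytes and macrophages, which serve as the background, the share was 0.267% in controls and 0.230% in iKO (pooled cells), at medians of 14102 and 14695.5 UMIs per cell. The pooled shares in CD8 T cells were 21.9% in controls (exact 95% interval 19.3 to 24.7%) and 6.49% in iKO (5.73 to 7.32%), at medians of 10070 and 14909.5 UMIs per cell. The intervals cover counting error only.

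After each cell was thinned to 3000 UMIs, which left out 18 control and 36 iKO CD8 T cells, 71 of 913 control cells (7.78%, exact 95% interval 6.12 to 9.71%) and 50 of 3754 iKO cells (1.33%, 0.990 to 1.75%) kept a UMI. By sample the thinned share was 6.82 to 9.71% in controls and 0.431 to 1.74% in iKO. In thinned monocytes and macrophages it was 0 of 2906 control cells, which allows up to 0.103%, and 3 of 5129 iKO cells (0.0585%). At that depth the 71 positive control cells held 101 UMIs of the gene, and the 50 positive iKO cells held 53. Before thinning, positive cells held on average 1.86, 2.98, 3.08 and 2.35 UMIs of the gene in control 1 to 4. In iKO 1 to 4 they held 1.83, 1.52, 2.33 and 1.71, and these ranges overlapped. The positive iKO cells were deeper, with a pooled median of 22392.5 UMIs in all against 17416 in controls. Also before thinning, cells with 5 or more UMIs numbered 26 of the 204 positive control cells and 14 of the 246 positive iKO cells. The highest count, 12, was in a cell of iKO 1.

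**Figure D2:**
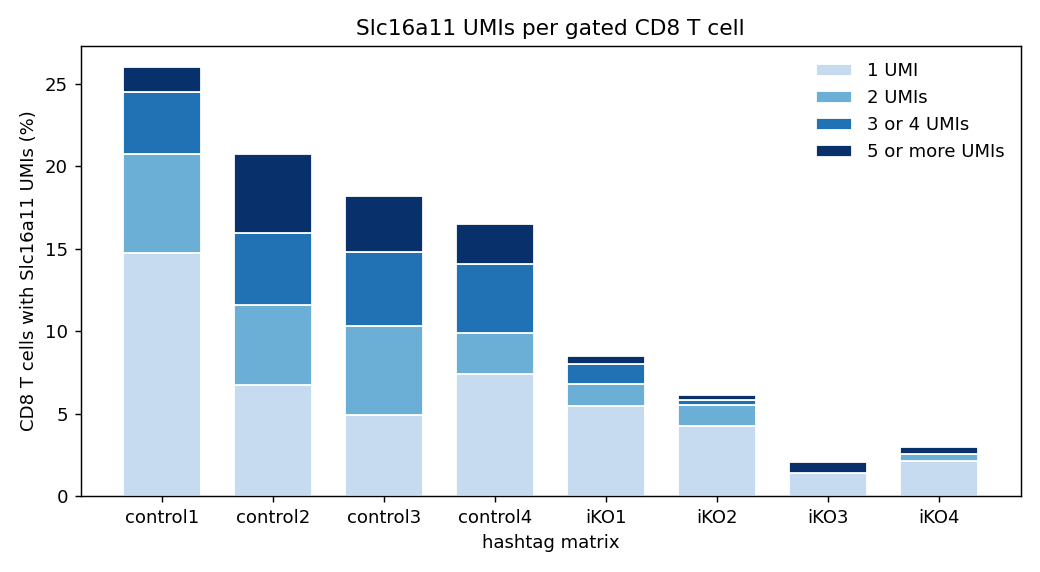
Share of gated CD8 T cells with Slc16a11 UMIs (y axis, percent) in each hashtag sample (x axis), stacked by the number of UMIs in the cell. The 4 control bars reach 16.5 to 26% and the 4 iKO bars 2.07 to 8.48%, and the darkest block, cells with 5 or more UMIs, is present in every sample.

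Markers of other cell types in the CD8 gate also moved with genotype. The summed level of 20 such markers was 536 to 756 CPM in the control samples and 243 to 366 CPM in the iKO samples. Cd4 and Foxp3 were at 0 by the gate, and 2 to 5 of the 20 were at 0 per sample. Of the 8 that could be fitted, 5 were lower in iKO by edgeR's adjusted p and none was higher, where 1.29% of all genes fitted were lower. The median log2 fold change of the 8 was -0.74 against -0.01 over all genes fitted. The 5 were Apoe, C1qa, C1qb, S100a8 and S100a9. DESeq2 fitted 18 of the markers and called 5 lower and 1 higher, against 180 lower and 271 higher of all 18880 genes. Of those not fitted in edgeR, Dct averaged 0.719 CPM in controls (at most 1.49) and 4.70 CPM in iKO (at least 3.06). Adgre1, Ncr1, Pmel, Mlana and Tyrp1 also averaged higher in iKO, and Cd79a, Cd79b, Ms4a1 and Klrb1c lower. Slc16a11 itself was at 0.221 CPM or less on average in the monocytes and macrophages of both groups.

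Among CD8 T cells split by Tcf7 and Pdcd1 UMIs, the mean level in both groups was highest in cells with Pdcd1 and without Tcf7, although none of the 7 pairs tested passed 0.05 after adjustment. The exception by sample was iKO 2, where cells with both transcripts were higher. Tcf7 encodes TCF1, a transcription factor of naive, memory and progenitor T cells, and Pdcd1 encodes the inhibitory receptor PD-1. Cells with Pdcd1 and without Tcf7 UMIs had 37.0, 72.6, 85.5 and 64.1 CPM of Slc16a11 in control 1 to 4 and 8.21, 5.31, 8.72 and 9.75 CPM in iKO 1 to 4. They held 435 of the 482 UMIs of control CD8 T cells (90.2%) and 385 of the 408 of iKO CD8 T cells (94.4%). At the other end, Tcf7-positive Pdcd1-negative cells had 2 UMIs in 274 control cells and none in 265 iKO cells, which allows up to 1.17 CPM. The difference between these states was 4.19 ± 1.42 (SD) on the log2(CPM + 1) scale and had the same sign in 8 of 8 samples (exact sign-flip permutation test, p = 0.00781, adjusted p = 0.0547 over 7 pairs). The unadjusted p is the smallest this test can give with 8 samples, and a pair alone at it could not pass 0.05 after adjustment over 7 pairs.

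Cells with neither transcript had 14.7 to 42.2 CPM in the 3 control samples with at least 20 such cells and 0 to 6.92 CPM in the 4 iKO samples. They were lower than the Pdcd1-positive Tcf7-negative cells in 7 of 7 samples, by 1.59 ± 1.40 on the log2(CPM + 1) scale (exact sign-flip permutation test, p = 0.0156, adjusted p = 0.0547). Cells with both transcripts, the combination used to describe progenitor exhausted T cells, had 14.3 and 25.9 CPM in the 2 control samples with at least 20 such cells, control 1 and 3. In iKO 1 to 4 they had 5.41, 9.31, 0 and 0 CPM. Against the Pdcd1-positive Tcf7-negative cells of the same samples they were lower in 5 of 6 samples (exact sign-flip permutation test, p = 0.0938, adjusted p = 0.131), so that difference did not exceed the spread between samples. The 0 counts of iKO 3 and iKO 4 allow up to 10.98 and 8.22 CPM. Their Pdcd1-positive Tcf7-negative cells had 8.72 and 9.75 CPM. At this depth iKO 3 gives no clear direction, and in iKO 4 the limit lies only a little below the other state.

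Cycling cells, with 2 or more UMIs of the proliferation genes Mki67 and Top2a, had 30.8, 60.9, 80.4 and 55.5 CPM in control 1 to 4 and 7.25, 5.04, 13.3 and 9.60 CPM in iKO 1 to 4. Cells with no UMI of either had 23.2, 30.0, 22.4 and 19.8 CPM in controls and 9.55, 5.62, 0 and 0.965 CPM in iKO. The cycling cells were higher in 6 of 8 samples, and iKO 1 and iKO 2 were the exceptions (exact sign-flip permutation test, p = 0.0391, adjusted p = 0.0911).

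**Figure D3:**
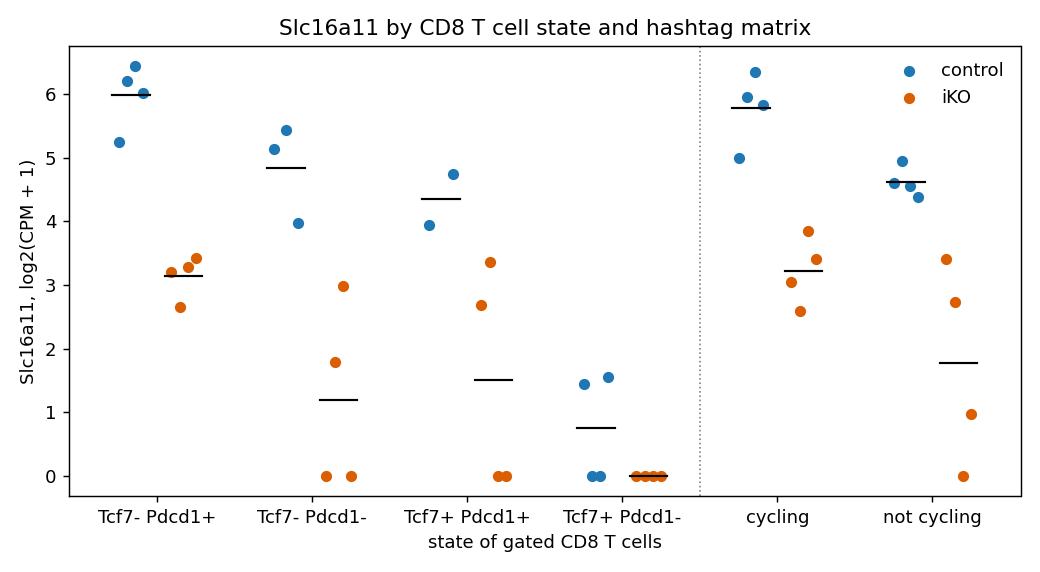
Slc16a11 level as log2(CPM + 1) (y axis) in CD8 T cells split by Tcf7 and Pdcd1 UMIs, left of the dotted line, and by cycling, right of it (x axis), 1 point per hashtag sample with at least 20 cells and black bars at group means. The Pdcd1-positive Tcf7-negative cells have the highest group means of the 4 Tcf7 and Pdcd1 states, with controls at 37.0 to 85.5 CPM and iKO at 5.31 to 9.75 CPM, and the Tcf7-positive Pdcd1-negative cells are at or near 0 in both groups.

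Pdcd1-positive Tcf7-negative cells made up 61.3%, 49.3%, 34.5% and 34.7% of CD8 T cells in control 1 to 4 and 86.3%, 85.3%, 40.0% and 40.7% in iKO 1 to 4. The mean share was 44.9% in controls and 63.1% in iKO. The part of the mix of states in the level over all CD8 T cells was not tested. Within this state the means were 64.8 ± 20.5 CPM in controls and 8.0 ± 1.90 CPM in iKO (SD, n = 4 each), and the fitted log2 fold change was -3.09 ± 0.281 (SE, edgeR). Among cells with no Mki67 or Top2a UMI it was -2.07 ± 0.419. In that group iKO 1, at 9.55 CPM, was the closest to the lowest control, at 19.8 CPM.

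The cells that carried Slc16a11 were then compared with CD8 T cells of the same sample that had none. This contrast lies within samples and did not use the genotype difference by which the gene was chosen. It covered the 6 samples with at least 10 positive cells, control 1 to 4 and iKO 1 and 2. iKO 3 and iKO 4, with 3 and 7 positive cells, were left out. Positive cells held fewer transcripts of S1pr1, Tcf7 and Gzma, and more of Penk, Atp2b2 and Cd70. Of 8832 genes fitted without Slc16a11, 784 (8.88%) passed an adjusted p of 0.05 in edgeR's quasi-likelihood test with sample as a block, 320 (3.62%) as higher and 464 (5.25%) as lower in positive cells. Leaving out control 1 gave 354 genes, and leaving out control 2 gave 451.

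Positive cells also held more UMIs in all than negative cells. Median UMIs were 13278 to 18714 in positive and 7253 to 9830 in negative control cells, and 22966 and 22673 in positive against 17652 and 14647 in negative cells of iKO 1 and 2. When all cells were thinned to 3000 UMIs and the positive cells taken from the thinned counts, 53 of 4079 genes passed. Positive cells then numbered 27, 20 and 16 in control 1 to 3 and 20 and 27 in iKO 1 and 2. Control 4, with 8, was left out of that fit. It was also left out of the fit without cycling cells, where it had 6 positive cells. Of the 19 genes named below, 7 could be fitted at 3000 UMIs per cell, and 2 of 3 rises and 3 of 4 falls kept their direction and passed. The parts of depth, of fewer positive cells and of the loss of control 4 in the other calls were not tested.

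S1pr1, the receptor for exit from tissue and lymph node (-3.75), Klf2 (-2.39) and Klf3 (-3.51), regulators of quiescence and trafficking, and Tcf7 (-3.40) and Lef1 (-2.61), transcription factors of naive and memory cells, fell in positive cells (log2 fold changes). Cxcr3, the receptor for CXCL9 and CXCL10, fell by 2.74, Gm2682 by 2.66 and Cmah, a sialic acid hydroxylase, by 2.25 on the log2 scale. These genes and Gzma were lower in 6 of 6 samples.

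Gzma, a granzyme of cytotoxic granules, fell further than these. It was 2.31, 2.31, 0 and 0 CPM in positive cells of control 1 to 4 and 205, 53.0, 88.2 and 10.6 CPM in negative cells. In iKO 1 and 2 the positive cells had 10.9 and 4.93 CPM and the negative cells 78.6 and 75.9 CPM. The means were 3.41 ± 4.11 and 85.1 ± 64.8 CPM (SD, n = 6), and the log2 fold change was -4.30 ± 0.330 (SE).

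The largest rises included Atp2b2, a plasma membrane calcium pump (log2 fold change 2.51 ± 0.275, SE), and Ccl1, a chemokine that binds CCR8 (2.35 ± 0.552). Penk, the precursor of enkephalin peptides, was 127, 167, 220 and 231 CPM in positive cells of control 1 to 4 and 41.1, 26.2, 24.5 and 12.6 CPM in negative cells. In iKO 1 and 2 it was 35.6 and 47.0 CPM in positive and 16.8 and 10.0 CPM in negative cells, a rise in 6 of 6 samples (2.16 ± 0.240). Tnfsf4 (OX40 ligand) rose by 1.84 and Cd70 (the ligand of CD27) by 1.56, both ligands of the TNF family. Cd81, a tetraspanin, rose by 1.90, Igfbp7, a secreted growth factor binding protein, by 1.57, Nrn1, which encodes neuritin, by 1.53, Ccdc184 by 1.98 and Exph5, a Rab27 effector, by 1.51. All of these rose in 6 of 6 samples except Ccl1, which was higher in 5 of 6. Control 2 was the exception for Ccl1, with 242 CPM in positive and 286 CPM in negative cells. Ccl1 did not pass in edgeR without control 1 (adjusted p = 0.0833), without cycling cells (0.0732), among Pdcd1-positive cells without Tcf7 UMIs (0.0579) or at 3000 UMIs per cell (0.12), nor in DESeq2 (0.0735). Its adjusted p in the other settings tried was at most 0.0465.

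**Figure D4:**
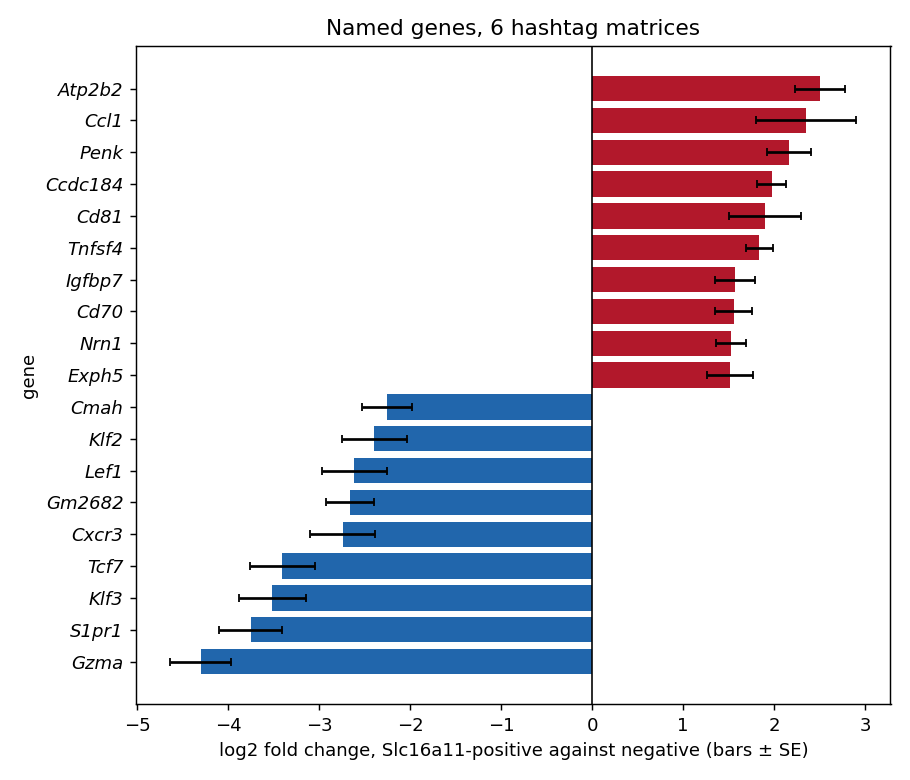
Log2 fold change (x axis) of 19 named genes (y axis) between Slc16a11-positive and negative CD8 T cells over 6 hashtag samples, with bars for the edgeR estimate and whiskers for its SE. Of the genes drawn, Gzma shows the largest fall (-4.30) and Atp2b2 the largest rise (2.51).

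The rises were also seen inside the Pdcd1-positive state, and the falls only in part. Among Pdcd1-positive cells all 10 of the genes that rose kept their direction and passed, with log2 fold changes of 1.14 to 2.27. Of the 7 reduced genes that could be fitted there, all kept their direction and 5 passed. Among Pdcd1-positive cells without Tcf7 UMIs, 9 of the 10 rises passed, and 3 of 5 reduced genes did: Gzma (-3.01), Cxcr3 (-1.94) and Gm2682 (-0.96). The number of genes called over the whole table was 188 of 8328 in the first group of cells and 103 of 8196 in the second. In control samples alone and in iKO samples alone, all 10 rises and all 9 falls kept their direction and passed.

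The same 19 genes are given for the genotype contrast over all CD8 T cells, which shares these samples and is not independent of the comparison above. All 10 genes that rose in positive cells had log2 fold changes below 0 in iKO, from -2.22 (Cd81) to -0.98 (Exph5). Of these, 7 passed as lower, against 122 of all 9463 genes fitted (1.29%). Penk had 76.4 ± 13.9 CPM in control and 19.0 ± 4.81 CPM in iKO CD8 T cells (SD, n = 4 each), and Cd70 24.6 ± 7.58 and 6.66 ± 1.39 CPM. None of the 9 named genes that fell in positive cells passed in that contrast, by edgeR or DESeq2 or at an unadjusted p under 0.05, with values of -0.78 (Klf3) to 0.69 (Cxcr3).

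Listed gene groups gave a mixed picture in positive against negative cells. Of 10 progenitor or memory genes fitted, 7 fell and none rose, with a median log2 fold change of -2.22 against 0.01 over all genes. Il7r, the interleukin 7 receptor, fell by 2.04 and Slamf6 by 1.66, while Ccr7 was at 0.14 and Xcl1 at 0.25 without passing. These cells are, by the Tcf7 and Pdcd1 states above, mostly Tcf7-negative. Of 17 exhaustion genes fitted, 5 rose and none fell (median 0.38): Cd200r1 by 0.77, Bhlhe40 by 0.70, Rgs16 by 0.61, Nr4a3 by 0.57 and Havcr2 by 0.38. The inhibitory receptor gene Pdcd1 was at 0.44 (adjusted p = 0.0693 in edgeR), Lag3 at 0.48 and Tox, a transcription factor of exhausted cells, at 0.40, and none of these passed. The count of rises was 2 without control 1, 3 without any other control sample, 2 with a gate of 3 or more Cd3 and 3 or more Cd8 UMIs and no myeloid or B cell marker UMI, and 9 without cycling cells. Over all genes fitted, 138 of 8380 rose without control 1, 210 of 8079 with that gate and 185 of 5973 without cycling cells. Without control 2, 3 and 4 it was 176 of 9140, 197 of 9169 and 226 of 9172. In iKO samples alone 2 rose and 1 fell, where 266 of all 11374 genes fitted rose and 346 fell. Among Pdcd1-positive cells, with or without the limit to Tcf7-negative cells, 1 exhaustion gene rose and none fell. Over all genes fitted, 83 of 8328 rose and 105 fell among Pdcd1-positive cells. With the limit to Tcf7-negative cells, 55 of 8196 rose and 48 fell. Of the progenitor or memory genes, 4 of 7 fitted fell among Pdcd1-positive cells. None of 6 passed in edgeR among those without Tcf7 UMIs, where 3 were lower and 1 higher at an unadjusted p under 0.05.

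Of 17 cytotoxic effector genes fitted, 3 rose and 3 fell (median 0.12). Prf1, which encodes perforin, rose by 0.43, Ifng by 0.66 and Cx3cr1 by 0.78, and Gzmk fell by 1.16 and Ccl5 by 1.04 beside Gzma. Only 1 rise was called without control 2 and among Pdcd1-positive cells, where 176 of 9140 and 83 of 8328 of all genes fitted rose. All 16 proliferation genes were above 0 (median 0.43), but Cenpa was the only one that passed, at 0.64. Of 15 type I interferon response genes fitted, 8 fell and none rose (median -0.58), including Rsad2 by 1.21, Ifit3 by 1.08, and Irf7 by 0.84. The count of falls was 4 without control 1 or without iKO 2, 3 without cycling cells, 2 among Pdcd1-positive cells and 1 among those without Tcf7 UMIs. Over all genes fitted, 216 of 8380 fell without control 1, 352 of 8457 without iKO 2 and 251 of 5973 without cycling cells. Among Pdcd1-positive cells 105 of 8328 fell, and among those without Tcf7 UMIs 48 of 8196. In the genotype contrast over all CD8 T cells, 19 of 20 genes of the interferon list passed as higher in iKO, with a median of 1.97. Over all genes fitted, 186 of 9463 passed as higher there. Of 7 fitted markers of other cell types, Lyz2, Cd68, S100a8 and S100a9 fell in positive cells and none rose (median -0.44). Leaving out any single sample gave 1 or 2 falls, where 216 of 8380 (without control 1) to 443 of 8468 (without iKO 1) of all genes fitted fell. Among Pdcd1-positive cells none of the 7 passed in edgeR, and 3 were lower at an unadjusted p under 0.05. At 3000 UMIs per cell none of the exhaustion, proliferation, interferon or other cell type genes passed in edgeR, where 29 of all 4079 genes fitted rose and 24 fell. At an unadjusted p under 0.05, 8 exhaustion genes were then higher, 1 proliferation gene was higher and 1 lower, and 2 interferon genes and 2 markers of other cell types were lower.

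**Figure D5:**
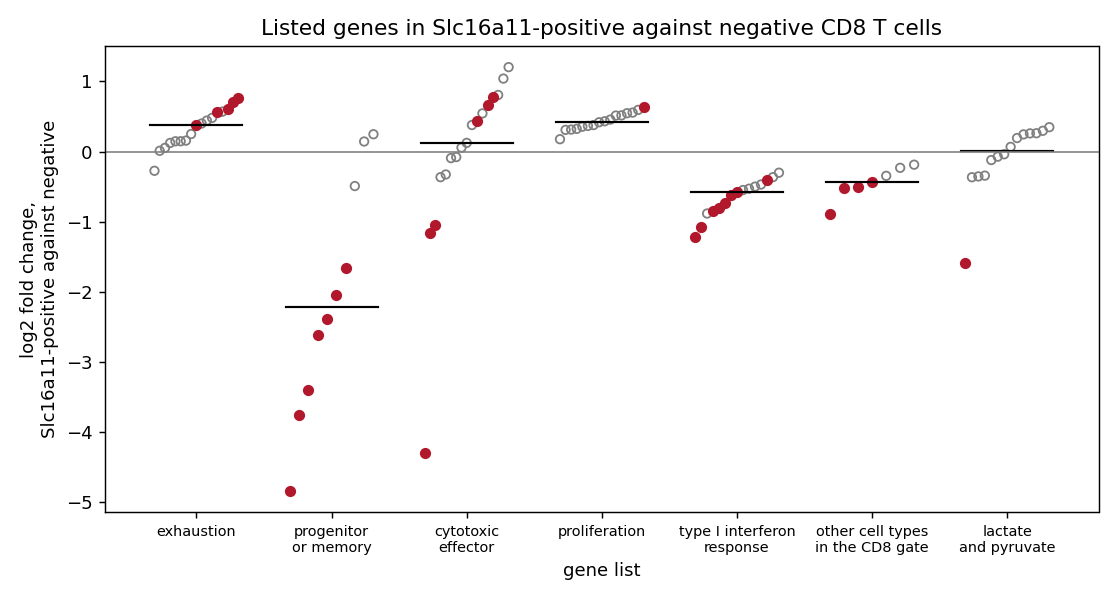
Log2 fold change between Slc16a11-positive and negative CD8 T cells (y axis) for each fitted gene of 7 lists (x axis), with filled red points for genes past an adjusted p of 0.05, open grey points for the others and black bars at list medians. The progenitor or memory genes have the lowest median (-2.22), and the interferon response genes are all below 0.

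Of the other transporter genes of the family, 4 could be fitted in the genotype contrast, and none passed. In CD8 T cells Slc16a1, which encodes the lactate transporter MCT1, had 17.4 ± 1.11 CPM in controls and 13.3 ± 2.81 CPM in iKO (edgeR log2 fold change -0.30, adjusted p = 0.395). Slc16a3, which encodes MCT4, an exporter of lactate, had 31.5 ± 5.17 and 37.4 ± 23.9 CPM (0.38, adjusted p = 0.674). Slc16a6 had 27.2 ± 2.28 and 37.4 ± 8.27 CPM (0.45, adjusted p = 0.199; SD, n = 4 each). Slc16a10 was low, at 2.89 ± 1.49 and 6.98 ± 3.86 CPM, and had the largest fold change of the 4 (edgeR log2 fold change 1.31, adjusted p = 0.152). Slc16a4, Slc16a5 and Slc16a7 stayed under 0.5 CPM in both groups, Slc16a12 and Slc16a14 had 1 UMI each, and Slc16a8 and Slc16a9 had none.

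Of the 26 genes for transporters, accessory proteins and lactate or pyruvate handling, 16 could be fitted in the genotype contrast, and none passed in edgeR in either direction (median log2 fold change 0.06), where 3 were higher and 2 lower at an unadjusted p under 0.05 and DESeq2 also called none. In positive against negative cells 14 could be fitted, and Emb was the only one called in edgeR. At an unadjusted p under 0.05, 5 were higher and 2 lower there. DESeq2 called 1 higher and 1 lower, against 308 higher and 522 lower of all 18742 genes. In edgeR without cycling cells 2 were called higher and 2 lower, against 185 higher and 251 lower of all 5973 genes. Emb encodes embigin, an accessory glycoprotein of monocarboxylate transporters, and was 64.5 ± 30.9 CPM in positive and 251 ± 191 CPM in negative cells (SD, n = 6), a fall of 1.59 on the log2 scale in 6 of 6 samples (edgeR adjusted p = 0.00109). Among Pdcd1-positive cells without Tcf7 UMIs it was at -0.33 and did not pass (adjusted p = 0.270). Bsg, which encodes basigin, was at 0.26 and Ldha, the lactate dehydrogenase subunit of muscle type, at 0.26 without passing.

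Slc16a13, the neighbouring gene, lies 371 bases from Slc16a11 on the opposite strand in GENCODE M21 on GRCm38, so that the 2 genes end towards each other without overlap. The deposited counts were made on GRCm39, and how reads near these ends were assigned was not tested. Slc16a13 had 190 UMIs in CD8 T cells, too few to be fitted, with 6.93, 2.39, 5.33 and 5.20 CPM in control 1 to 4 and 1.81, 1.77, 0.683 and 3.57 CPM in iKO 1 to 4. iKO 4 lay above control 2, so the groups overlapped. In Slc16a11-positive cells it was at 13.4, 3.46, 9.70 and 16.1 CPM in control 1 to 4 and 2.83 and 4.06 CPM in iKO 1 and 2. In the negative cells of the same samples it was at 3.34, 1.83, 2.80, 1.93, 1.69 and 1.56 CPM, lower in each of the 6. On the other side, Clec10a, a lectin gene of myeloid cells, had 219 of its 10733 UMIs in CD8 T cells.

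The genes whose level over cell types and samples was most like that of Slc16a11 were sought over 56 profiles of a type in a sample with at least 50 cells, among 9556 genes with a mean of at least 5 CPM. The profiles share samples and cell types, so the correlations are descriptions. The highest Pearson's r of log2(CPM + 1) were those of Gldc (0.799), which encodes a glycine-cleaving enzyme, Nrgn (0.761), Trgv2 (0.723), Ccl1 (0.714), Serpine2 (0.693), Filip1 (0.666), Trgc2 (0.665) and Gm42047 (0.660). Gldc had 46.3 CPM on average in control and 23.4 CPM in iKO CD8 T cells, and Nrgn 339 and 138 CPM. Of the 8, Ccl1 was the only one that passed as lower in iKO CD8 T cells (edgeR log2 fold change -1.26, adjusted p = 0.00751), against 1.29% of all genes fitted. By the same test 6 were higher in Slc16a11-positive than negative CD8 T cells, against 3.62% of all genes fitted. The 8 were picked for their likeness to Slc16a11 in these same samples, so both counts are descriptions only.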

How the data were processed

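Whole-number UMI counts per gene and barcode were deposited by the authors as 1 matrix per hashtag sample, made with Cell Ranger 7.1.0 on GRCm39 per the submitters' processing notes. The intron setting is not given in the sources used here. Slc16a11 and all gene lists were chosen with earlier results of these data known. Of 23731 barcodes, those with at least 300 genes and at most 10% mitochondrial counts were kept (1241 removed), and 438 with a Scrublet score over 0.25 were removed as doublets (scanpy 1.11.5, expected rate 0.06). No barcode was shared within a pool, and 7 to 14 per sample recurred in the other pool.

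Types were gates on marker UMIs. CD8 T cells had 2 or more Cd3d, Cd3e and Cd3g UMIs, 2 or more Cd8a and Cd8b1 UMIs, no Cd4 or Foxp3 UMI, and at most 1 myeloid and 1 B cell marker UMI. CPM is the gene's summed count per 1000000 UMIs of the profile. Profiles needed 20 cells. Counts summed per sample were fitted with edgeR 4.0.16 in R 4.3.3 (TMM, filterByExpr, quasi-likelihood test, Benjamini-Hochberg, threshold 0.05). DESeq2 1.42.0 was an alternative. In simulated counts with 200 genes changed 4-fold, 95.5% were recovered in the positive against negative comparison (8717 genes) and 4.50% of calls were false. Summed counts were simulated, with no split of cells by a detected UMI. That share therefore does not cover calls that come from the greater depth of positive cells. Named genes were the 10 largest rises and falls among genes past the threshold, with a mean of 20 CPM or more and the same direction in all but at most 1 sample, without receptor segments, ribosomal and mitochondrial genes, and up to 4 to 10 examples per list. One gene that the rule names is not reported here, which leaves 9 falls. The examples of a list were taken after its values were seen.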

Additional observations from a re-analysis of the deposited data

Results flagged for a closer look

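In CD8 T cells, iKO 1 stood apart from the other iKO samples with 7.70 CPM of Slc16a11, by Dixon's test of the gap over the range. Single samples also stood apart where a type held few UMIs: control 3 (2.27 CPM) and iKO 2 (1.43 CPM) in regulatory T cells, iKO 4 (2.11 CPM) in conventional CD4 T cells, control 2 (13.5 CPM, from 3 UMIs) in B cells, control 3 (0.888 CPM) in type 1 dendritic cells, and control 4 (0.800 CPM) and iKO 4 (1.31 CPM) in mature dendritic cells. These are 8 of 30 groups of 4 samples. In the 7 outside CD8 T cells the other 3 samples of the group had no UMI. The gap then equals the range, so such a group is flagged at any count. The usual chance rate of about 1 in 20 does not hold for these 7.

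Ungated cells, which entered no comparison, held 104 UMIs of Slc16a11 in 46 of 3126 cells. Of these 46 cells, 39 had 2 or more UMIs of both Cd3 and Cd8 genes, against 463 of all ungated cells (14.8%), and 36 had more than 1 UMI of myeloid markers.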

How the results depend on the processing

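The log2 fold change of Slc16a11 in CD8 T cells, -2.77, was -3.09 among Pdcd1-positive Tcf7-negative cells and -2.07 without cycling cells, and leaving out single samples gave -3.02 to -2.66. The number of genes called between positive and negative cells was 784. It was 53 at 3000 UMIs per cell and 436 without cycling cells, and both of these fits also left out control 4 for too few positive cells. It was 188 among Pdcd1-positive cells, 103 among those without Tcf7 (chosen after seeing the data) and 1383 without the low-count filter. Leaving out single samples gave 354 to 745. The genotype fit called 308 genes, against 100 at 3000 UMIs, 644 among Pdcd1-positive Tcf7-negative cells, 143 without cycling cells and 138 to 298 without single samples. The labels give no shared source for equal hashtag numbers. Correlations of deviations between equal numbers were 0.554, 0.0964, 0.207 and 0.309 for numbers 1 to 4, and 4 of 4 control but 2 of 4 iKO samples correlated best with their own number, which is a hint from the data. With a replicate block 659 genes were called and Slc16a11 was at -2.72.

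Differences near 0 changed sign when single samples were left out, and each is given here as the range over those fits. Between genotypes the range was -0.569 to 0.359 CPM in regulatory T cells, -0.200 to 0.327 in mature dendritic cells and -0.124 to 0.0198 in monocytes and macrophages, where thinning to 3000 UMIs gave 0.252. Between states, on the log2(CPM + 1) scale, cells with neither against both transcripts ranged from -0.769 to 0.364 (0.144 without iKO 2). Between types on that scale, B against regulatory T cells ranged from -0.428 to 0.367, regulatory T cells against neutrophils from -0.176 to 0.142 (-0.0606 without control 3), neutrophils against mature dendritic cells from -0.0496 to 0.299 (-0.00713 without control 1), and mature dendritic cells against monocytes and macrophages from -0.146 to 0.0945 (-0.0861 without control 4). The causes were not tested. Outside CD8 T cells Slc16a11 failed the low-count filter in every type, so depth limits those comparisons.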
